A study of Mus musculus with 14 samples.

Results

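Transcripts of 9 genes of the p38 MAP kinase pathway were followed in LSECs, the liver sinusoidal endothelial cells, whose pores let plasma pass from the hepatic capillaries to hepatocytes. The genes are the p38 kinases Mapk14, Mapk11, Mapk12 and Mapk13, the upstream kinases Map2k3, Map2k6 and Map3k5, and the downstream kinases Mapkapk2 and Mapkapk3. They were chosen by name, though with earlier results of these data known, and each matched 1 of the 23930 targets of the amplicon panel. Cells came from the livers of female wild-type C57BL/6J mice and were sorted as CD45 dim, STAB2 high and CD146 high. The groups were 7 libraries from aged mice (10 to 11 months old) and 7 from young mice (8 to 10 weeks old), of which experiment 1 gave 3 of each age and experiment 2 gave 4 of each. A library is named by age, experiment and replicate number, so aged 2.4 is aged replicate 4 of experiment 2. No treatment or engineered allele is given for either group. The labels do not say that each library came from a separate mouse, so the spread behind the p-values is that of these samples and may be technical in part.

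The p38 kinases are stress-activated protein kinases that sit in a tiered cascade. Cytokines, oxidants and other stresses switch on kinases such as ASK1 (the product of Map3k5), these phosphorylate MKK3 and MKK6 (Map2k3 and Map2k6), and MKK3 and MKK6 phosphorylate p38. Active p38 phosphorylates transcription factors and the kinases MK2 and MK3 (Mapkapk2 and Mapkapk3), which act on proteins that bind mRNA and actin. The series title places p38 between iron and the transcription factor ETS1 in the control of LSEC Bmp6, the gene of a protein that induces the iron hormone hepcidin. The cascade is run by phosphorylation, which these data do not measure. Transcript levels were compared between aged and young LSECs.

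Each library held 6710403 to 13977361 reads on targets. All 11 LSEC markers were read in every library, with a summed level of 19715 to 34221 CPM (reads scaled to library size by TMM) in aged and 23312 to 35386 CPM in young libraries. The libraries differed in reads on targets of olfactory, taste and vomeronasal receptors, which are not expected in endothelium. Their share of reads was 0.148 to 3.22% in aged and 0.252 to 3.05% in young libraries, and in experiment 2 aged 2.4 (2.85%) and young 2.2 (2.96%) stood above the other 6, which reached at most 0.971%. Markers of leukocytes also varied: 8 of 8 were tested, all 8 had positive log2 fold changes and 0 passed the threshold. Their summed level was 56.6 to 2270 CPM in aged libraries, with a median of 370.5, and 68.4 to 903.4 CPM in young libraries, with a median of 93.3. Markers of Kupffer cells summed to 35.3 to 273.6 CPM in aged and 29.0 to 112.0 CPM in young libraries, with Cd163, Marco, C1qa and C1qc at 0 in some library, and markers of hepatocytes to 484.0 to 7318 CPM in aged and 395.5 to 2143 CPM in young libraries. Of the tested markers 7 of 7 of Kupffer cells, 5 of 5 of B cells, 4 of 5 of T and NK cells, 3 of 3 of monocytes and neutrophils, 6 of 6 of hepatocytes and 5 of 6 of stellate cells had positive log2 fold changes, as had Map3k5 and Mapkapk3, while 9 of 11 LSEC markers had negative ones. None of these markers passed the threshold, and their part in the values of Map3k5 and Mapkapk3 was not tested. Over all 14168 targets 7022 had positive and 7146 negative log2 fold changes. Libraries pool many cells, so fewer cells of a type and less RNA per cell cannot be told apart.

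The largest age difference among the tested members was that of Map3k5, at the top of the cascade. Its level was 3.95-fold higher in aged LSECs, and that of Mapkapk3 was 1.61-fold higher, but neither passed the threshold over all targets. With edgeR's quasi-likelihood test and an adjusted p under 0.05 as the threshold, 0 of the 8 members with enough reads were called, against 0.162% of all 14168 targets tested. At an unadjusted p under 0.05 the count was 1 of 8, Map3k5, against 6.77% of all targets. Map3k5 had only 3 to 42 reads per library. It reached 10 reads in 6 aged libraries and 1 young library, so its high group brought it into the test. DESeq2 called 1 member, Map3k5, and 1.06% of all targets, and limma-voom called 0 members and 0.155% of targets. Over all 14 libraries the aged and young values of every member overlapped, while 0.12% of all targets lay wholly above and 0.113% wholly below in aged libraries. The other 6 tested members (Map2k3, Map2k6, Mapk14, Mapk11, Mapk12 and Mapkapk2) differed by less than 1.5-fold, as did 91.5% of all targets.

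**Figure D1:**
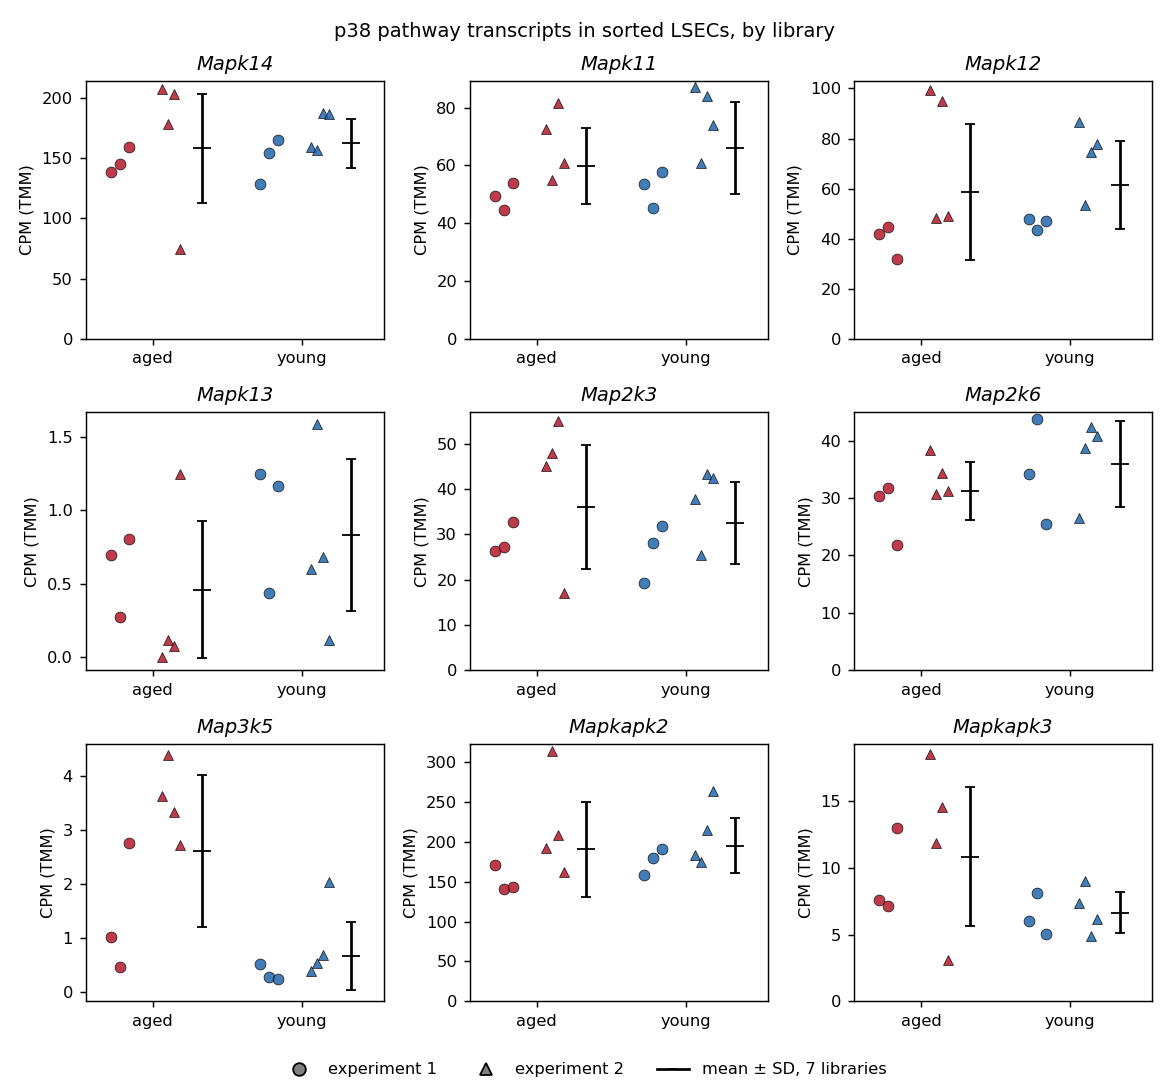
Level of each of the 9 genes in CPM after TMM scaling (y axis), by age group (x axis). Each point is 1 library, circles are experiment 1 and triangles experiment 2, and the bars are the mean and SD of 7 libraries. Map3k5 lies at 0.457 to 4.38 CPM in aged and 0.234 to 2.02 CPM in young libraries, and Mapk14 is lowest in 1 aged library at 74.9 CPM.

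Map3k5 (target NM_008580.4) encodes ASK1, a kinase that thioredoxin holds inactive until oxidants release it. Its reads were few. In experiment 1 there were 13, 5 and 34 reads in aged 1.1, 1.2 and 1.3, against 7, 3 and 3 reads in young 1.1, 1.2 and 1.3. In experiment 2 there were 32, 38, 42 and 26 reads in aged 2.1 to 2.4, against 5, 4, 5 and 17 reads in young 2.1 to 2.4. Every aged library of experiment 2 was above every young one, as was the case for 0.903% of all targets in that direction, and in experiment 1 the groups overlapped. Summed over libraries there were 190 reads in aged (exact Poisson 95% interval 163.9 to 219.0) and 44 in young (32.0 to 59.1). These intervals cover counting error only. Amplified reads carry no molecular identifiers here.

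Scaled to library size, Map3k5 had a mean of 2.61 ± 1.41 CPM in aged LSECs, against 0.659 ± 0.622 CPM in young LSECs (SD, n = 7 each). The log2 fold change was 1.98 (SE 0.459, 95% interval of the fold 2.0 to 7.83), with an unadjusted p of 0.000713 and an adjusted p of 0.195 by edgeR's quasi-likelihood test. A smaller p was found for 0.353% of all targets. An exact two-sided permutation of its log2 CPM within experiments gave p = 0.00286, where the smallest possible value is 0.00143, and 7 of 7 aged libraries lay above the young mean of their experiment (2.36% of all targets did). That test was run for each of the 9 genes, and its p-values are not adjusted. The log2 fold change was 2.02 (SE 0.746) in experiment 1 and 1.96 (SE 0.622) in experiment 2. Map3k5 reached 10 reads in 6 aged libraries and 1 young library, so it entered the test through the group where it was high.

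The call for Map3k5 turned on the tool, with an adjusted p of 0.0157 by DESeq2 and 0.167 by limma-voom. Its log2 fold change stayed between 1.67 and 2.40 when any 1 library was left out, with adjusted p-values of 0.0763 to 0.458 by edgeR.

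The window around the annotated start of Map3k5 is shown because this gene had the largest difference of the 9. It covers 250 bases before and 50 after the start, from RefSeq on GRCm38.p6, at chr10:19934276-19934575 on the plus strand. Capitals mark GGAA on either strand (TTCC on the printed strand), the core that ETS factors bind.

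Map3k5: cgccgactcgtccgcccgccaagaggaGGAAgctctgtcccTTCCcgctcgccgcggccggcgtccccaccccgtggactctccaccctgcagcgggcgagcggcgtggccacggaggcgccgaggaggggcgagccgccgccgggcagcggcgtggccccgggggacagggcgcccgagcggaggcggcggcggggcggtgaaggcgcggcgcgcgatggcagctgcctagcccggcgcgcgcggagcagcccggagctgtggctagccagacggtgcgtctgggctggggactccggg

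It held 2 such cores, no full ETS site (CCGGAAGT), no antioxidant response element (TGACNNNGC), to which NRF2 binds, and no AP-1 site (TGACTCA). The GGAA core occurred in 96.0% of 32851 promoter windows of the same length, the full ETS site in 3.89%, the antioxidant response element in 12.4% and the AP-1 site in 5.20%, both strands searched. The window held 47 CpG dinucleotides, where the median window held 7. Absence says only that these letters are not in this window.

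Map3k5 and leukocyte markers were high together in some libraries and not in others. Aged 2.2 had the highest value of all 14 libraries for both, 2270 CPM of markers and 4.38 CPM of Map3k5. Aged 1.3 had 2041 CPM of markers and 2.74 CPM of Map3k5, and aged 2.1 had 1583 CPM of markers and 3.63 CPM of Map3k5. Aged 2.4 had the lowest leukocyte marker sum of all 14 libraries, 56.6 CPM, and a Map3k5 level of 2.71 CPM, above all 7 young libraries. Young 2.1 had the highest marker sum of the young libraries, 903.4 CPM, and a Map3k5 level of 0.375 CPM. Aged 1.1 and 1.2, at 161.2 and 169.6 CPM of markers, had 1.01 and 0.457 CPM. With the leukocyte markers as a term the log2 fold change of Map3k5 was 1.78 (SE 0.544, adjusted p = 0.893 by edgeR). The part of leukocyte RNA in the Map3k5 value was not tested beyond that term.

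**Figure D2:**
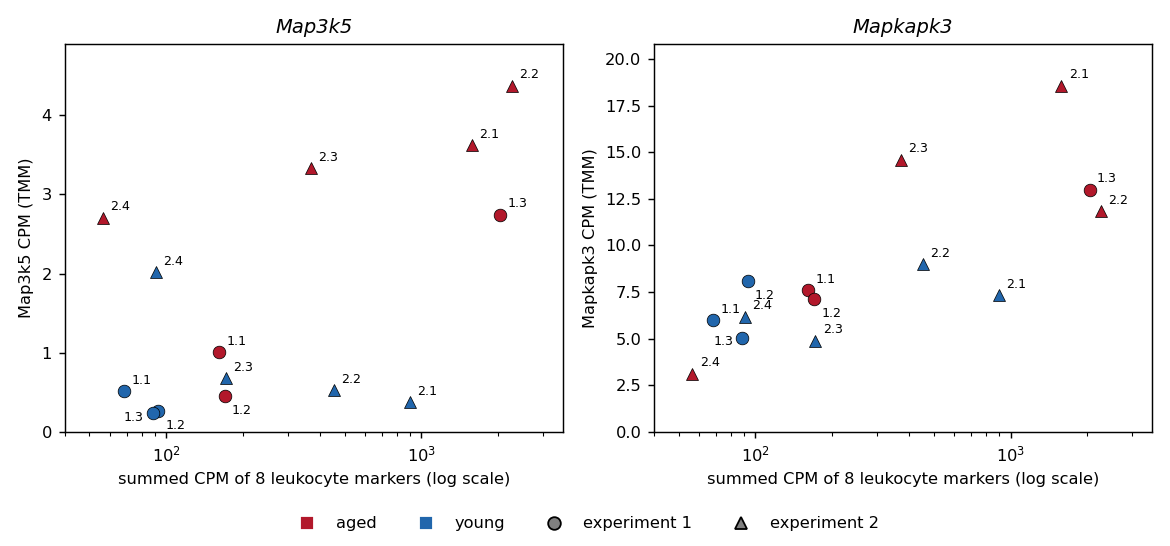
Level of Map3k5 (left) and Mapkapk3 (right) in CPM after TMM scaling (y axes) against the summed CPM of 8 leukocyte markers on a log scale (x axes). Each point is 1 library with its experiment and replicate number, aged in red and young in blue. Aged 2.4 has the lowest marker sum, 56.6 CPM, with 2.71 CPM of Map3k5 and 3.12 CPM of Mapkapk3.

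The kinases that phosphorylate p38 directly showed no difference beyond their spread. Map2k3 (NM_008928.4), which encodes MKK3, had a lowest, median and highest level of 17.1, 32.8 and 55.1 CPM in aged and 19.2, 31.9 and 43.4 CPM in young libraries. Between the ages the log2 fold change was 0.14 (SE 0.227, 95% interval of the fold 0.786 to 1.55). Aged 2.4 was the lowest of all 14 libraries and aged 2.3 the highest, so the young range lay inside the aged one.

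Map2k6 (NM_011943.2), which encodes MKK6, had a lowest, median and highest level of 21.8, 31.2 and 38.4 CPM in aged and 25.5, 38.8 and 43.8 CPM in young libraries. On the log2 scale the fold change was −0.21 (SE 0.156, 95% interval of the fold 0.685 to 1.09). In 6 of 7 aged libraries it was under the mean of the young libraries of the same experiment, and the groups overlapped. The share of all targets with such a count was not taken in this direction. In the other direction 10.8% of all targets had 6 or 7 of 7 aged libraries above that mean, Map2k3 and Mapkapk3 among them. The permutation p was 0.721 for Map2k3 and 0.226 for Map2k6 (exact, two-sided, within experiments).

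Mapk14 (NM_001168508.1) encodes p38 alpha, the form on which most p38 signalling rests in most cells. Its lowest, median and highest levels were 74.9, 159.2 and 207.4 CPM in aged and 128.3, 158.9 and 187.2 CPM in young libraries. Aged 2.4, at 74.9 CPM and 719 reads, stood below all others. Without it the log2 fold change was 0.092 (SE 0.0907) in place of −0.04 (SE 0.178). With all libraries the 95% interval of the fold was 0.748 to 1.27, and the exact permutation p was 0.87.

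The window of Mapk14 is printed beside that of Map3k5 as that of the kinase named by the series title. It is the more upstream of the 2 annotated starts, from RefSeq on GRCm38.p6, at chr17:28691092-28691391 on the plus strand, with the same capitals.

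Mapk14: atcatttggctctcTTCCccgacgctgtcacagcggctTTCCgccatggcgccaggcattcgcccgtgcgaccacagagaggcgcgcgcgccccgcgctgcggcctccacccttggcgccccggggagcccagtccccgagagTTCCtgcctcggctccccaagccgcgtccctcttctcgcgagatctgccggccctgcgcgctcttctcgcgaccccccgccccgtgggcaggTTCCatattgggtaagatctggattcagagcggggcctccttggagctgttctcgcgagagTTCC

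It held 5 ETS cores, 33 CpG dinucleotides and none of the full ETS, antioxidant response or AP-1 sequences. All 9 genes had an entry, with 13 annotated starts in all, and none of these 13 windows held the full ETS site or the AP-1 site. The antioxidant response sequence was found in 1 window each of Mapk14 (the other start) and Mapkapk2 and in 2 each of Map2k6 and Mapkapk3. It occurred in 12.4% of all 32851 windows, and windows of 1 gene were counted apart.

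Mapk11 (NM_011161.5) encodes p38 beta, the form closest to p38 alpha. Its lowest, median and highest levels were 44.7, 54.8 and 81.7 CPM in aged and 45.1, 61.0 and 87.1 CPM in young libraries, so that both ranges nearly coincided. On the log2 scale the fold change was −0.14 (SE 0.113, 95% interval of the fold 0.769 to 1.08), the narrowest interval of the tested members.

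Mapk12 (NM_013871.3) encodes p38 gamma, a form known best from skeletal muscle. Its lowest, median and highest levels were 31.8, 48.3 and 99.6 CPM in aged and 43.3, 53.4 and 86.4 CPM in young libraries. Aged 2.1 and 2.3 were the highest of all 14 and aged 1.3 the lowest. Between the ages the log2 fold change was −0.10 (SE 0.181, 95% interval of the fold 0.715 to 1.22).

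Mapk13 (NM_011950.2) encodes p38 delta, which epithelial and some immune cells express. It had 0 to 17 reads per library, reached 10 reads in 5 of 14 and did not pass the read filter of the main edgeR fit. The exact permutation p within experiments was 0.144. Aged 1.1 to 1.3 had 9, 3 and 10 reads and aged 2.1 to 2.4 had 0, 1, 1 and 12, against 17, 5 and 15 in young 1.1 to 1.3 and 8, 12, 5 and 1 in young 2.1 to 2.4. In aged 2.1 the count of 0 allows a level of up to 0.340 CPM, the worth of 3 reads. Split at a share chosen after the values were seen, the level was 0.274 to 1.59 CPM in the 8 libraries with over 1% of receptor reads and 0 to 0.681 CPM in the 6 others. The 8 were all libraries of experiment 1 with aged 2.4 and young 2.2, so the split largely followed the experiment, and the ranges overlapped. The part of receptor reads in the level of Mapk13 was not tested. With every target kept, its log2 fold change was −0.86 (SE 0.730, adjusted p = 0.842 by edgeR's quasi-likelihood test).

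Mapkapk2 (NM_008551.2) encodes MK2, which phosphorylates the mRNA decay factor tristetraprolin and the small heat shock protein HSP27. Its lowest, median and highest levels were 140.6, 171.1 and 314.2 CPM in aged and 157.8, 183.1 and 263.2 CPM in young libraries. Aged 2.2 was the highest library and the groups overlapped. The log2 fold change was −0.05 (SE 0.146, 95% interval of the fold 0.776 to 1.20).

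Mapkapk3 (NM_001316691.1) encodes MK3, a close relative of MK2 that shares its targets. In aged libraries it had 7.59, 7.12 and 13.0 CPM in experiment 1 and 18.6, 11.9, 14.6 and 3.12 CPM in experiment 2 (replicates in number order). In young libraries it had 6.00, 8.11 and 5.06 CPM in experiment 1 and 7.35, 8.99, 4.90 and 6.19 CPM in experiment 2. The 4 highest values were all from aged libraries, and the lowest of all, 3.12 CPM in aged 2.4, was from an aged library too.

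Its mean was 10.8 ± 5.22 CPM in aged LSECs, against 6.66 ± 1.55 CPM in young LSECs (SD, n = 7 each). The log2 fold change of Mapkapk3 was 0.69 (SE 0.333, 95% interval of the fold 0.984 to 2.65), with an adjusted p of 0.76 by edgeR's quasi-likelihood test, and the exact permutation p was 0.154. The 4 aged libraries above 11 CPM, aged 1.3, 2.1, 2.2 and 2.3, had 370.5 to 2270 CPM of leukocyte markers, while aged 2.4 had the lowest marker sum. Young 2.1 and young 2.2 had 903.4 and 455.1 CPM of markers, more than aged 2.3, but 7.35 and 8.99 CPM of Mapkapk3. With the marker term the log2 fold change was 0.24 (SE 0.324), and without aged 2.4 and young 2.2 it was 0.91 (SE 0.254, adjusted p = 0.16). The part of leukocyte RNA in this value was not tested beyond that term.

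**Figure D3:**
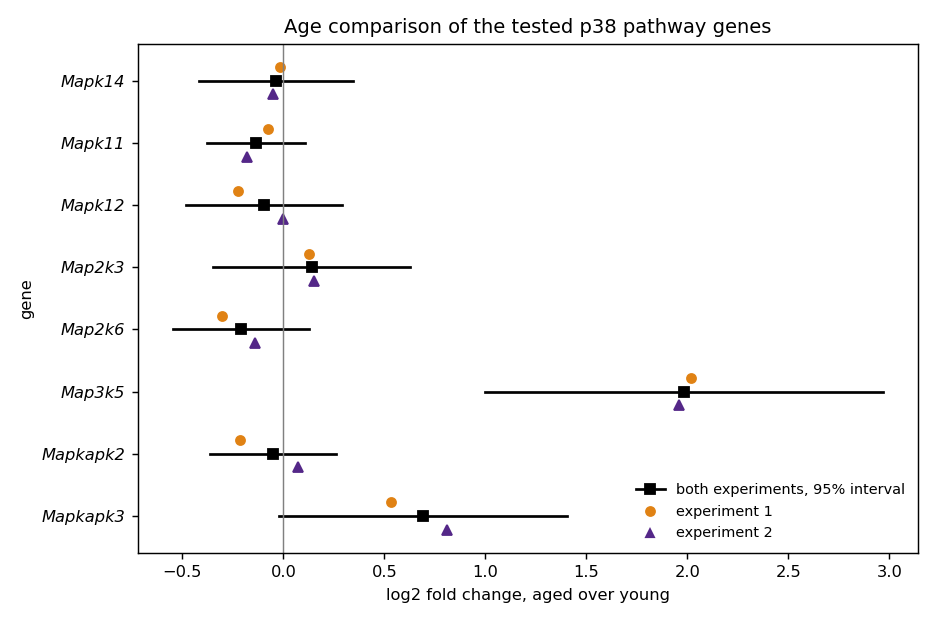
Log2 fold change, aged over young (x axis), of the 8 tested genes (y axis). Squares with lines are the value over both experiments with its 95% interval, circles experiment 1 and triangles experiment 2. Intervals are not adjusted over all targets. That of Map3k5 lies wholly above 0, and those of the other 7 genes include 0. Map3k5 entered the test through the group where it was high, and its adjusted p was 0.195 by edgeR.

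Within the experiments no member passed by edgeR. In experiment 1 edgeR called 0 of all targets (0%) and in experiment 2 it called 1 target (0.00706%). At an unadjusted p under 0.05 Map3k5 was the single member in each experiment. The share of all targets under that p was 6.45% in experiment 1 and 2.79% in experiment 2. Map3k5 had entered the test through the group where it was high, over these same libraries. Its adjusted p by edgeR was 0.752 in experiment 1 and 0.9999 in experiment 2, and both values rest on a shared estimate of the spread. Neither DESeq2 nor limma-voom called a member within an experiment. The test of a different age effect between the experiments called 0 members and 0% of all targets, with 0 members at an unadjusted p under 0.05 against 2.18% of targets, and DESeq2 and limma-voom called 0 members. The difference of log2 fold changes, experiment 2 minus experiment 1, ran from −0.10 for Mapk11 to 0.29 for Mapkapk2, with standard errors of 0.235 to 0.709 over the 8 genes.

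Ratios of reads within a library do not depend on library scaling. Mapk14 had 0.674 to 1.84 times the summed reads of the other p38 kinases in aged and 0.913 to 1.74 times in young libraries. Map2k3 had 0.547 to 1.6 times the reads of Map2k6 in aged and 0.562 to 1.42 times in young libraries. Mapkapk2 had 10.4 to 52.1 times the reads of Mapkapk3 in aged libraries, with a median of 19.7, and 19.5 to 43.9 times in young libraries, with a median of 26.3. The ranges overlapped for each pair. In that order, the log2 ratios differed between aged and young by 0.04, 0.29 and −0.60, with exact permutation p-values of 0.851, 0.36 and 0.119, which are 0.851, 0.54 and 0.356 after Benjamini-Hochberg adjustment over the 3 ratios.

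In aged LSECs the order by mean reads was Mapkapk2 (190.5 CPM), Mapk14 (158.2), Mapk11 (59.7), Mapk12 (58.6), Map2k3 (36.0), Map2k6 (31.2), Mapkapk3 (10.8), Map3k5 (2.61) and Mapk13 (0.46). The young order had Map2k6 (36.0 CPM) above Map2k3 (32.6 CPM) and Mapk13 (0.834 CPM) above Map3k5 (0.659 CPM). The intervals of mean ± SD of Mapkapk2 and Mapk14, of Mapk11 and Mapk12, and of Map2k3 and Map2k6 overlapped in both groups. Each target is amplified with its own primers, and such reads do not scale with transcript length, so this is an order of reads and not of mRNA molecules.

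The levels were also compared between the experiments. This comparison was chosen after the values were seen. In experiment 2 against experiment 1 all 8 tested members were higher. The share of all targets that were higher, called or not, was not counted. Mapk11 (1.42-fold, adjusted p = 0.0224) and Mapk12 (1.71-fold, adjusted p = 0.026) passed edgeR's quasi-likelihood test. Of all targets 7.79% were called and 6.99% were called as higher, 990 of the 1103 called. Calls as higher in experiment 2 were thus not confined to these genes. Whether such calls were more frequent among the members was not tested. Mapk12 averaged 73.0 CPM in experiment 2 and 42.7 CPM in experiment 1, and Mapk11 averaged 72.0 CPM in experiment 2 and 50.7 CPM in experiment 1. Receptor reads were under 1% of the library in 6 of 8 libraries of experiment 2 and over 1% in all 6 of experiment 1. Receptor share and experiment thus largely went together and can hardly be told apart here. With the receptor share as a term 0 members passed, and Mapk12 had a log2 value of 0.35 in place of 0.78. The count was 0 without aged 1.1, young 1.1, aged 1.2 or young 2.1, 1 without young 1.3, aged 2.3 or young 2.4, 4 without young 2.2 and 6 without aged 2.4.

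Across the 14 libraries the level of Mapk14 was most like those of H2-D1, an MHC class I heavy chain, Zfp574, a zinc finger gene, Dnpep, an aspartyl aminopeptidase, Plcg1, a phospholipase C activated by growth factor receptors, and Mknk2, a kinase activated by p38 and ERK. Likeness was Pearson's r of log2 CPM after subtracting the mean of each experiment, over 11745 targets with a mean of at least 5 CPM. It was 0.968 for H2-D1, 0.963 for Zfp574, 0.962 for Dnpep, 0.961 for Plcg1 and 0.956 for Mknk2. Without aged 2.4 and young 1.1, the libraries farthest from the median of Mapk14, these values were 0.835, 0.791, 0.814, 0.842 and 0.743. H2-D1 has near-identical relatives, so its count is uncertain. Among the members Map2k3 was the most like Mapk14 (r = 0.904, rank 109, and 0.764 without these 2 libraries), while Map2k6 had an r of 0.162. All values come from the same libraries and share their scaling.

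The other genes of the pathway were counted from 6 lists, of upstream kinases and adaptors, downstream kinases, phosphatases, transcription factor substrates, substrates of MK2, and the neighbouring JNK, ERK and ERK5 kinases. Of 88 genes 83 matched a target and 78 were tested. EdgeR called 0, DESeq2 0 and limma-voom 0. At an unadjusted p under 0.05 there were 1 higher and 4 lower in aged LSECs, where 3.43% and 3.34% of all targets were. The median log2 fold change was −0.03, beside −0.002 over all 14168 targets, and 75 of the 78 differed by less than 1.5-fold.

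Of 26 upstream kinases and adaptors all were tested, 7 had positive and 19 negative log2 fold changes, and 0 passed. Over all 14168 targets 7022 had positive and 7146 negative values. The sign counts of the lists were not tested. Map3k7, which encodes TAK1, the kinase between cytokine receptors and MKK3, MKK6 and MKK4, had a mean of 152.6 ± 38.5 CPM in aged LSECs, against 188.7 ± 38.1 CPM in young LSECs (SD, n = 7 each). The fold change was −0.33 in log2 units (SE 0.134, adjusted p = 0.671 by edgeR) and 7 of 7 aged libraries lay below the young mean of their experiment, as did 3.05% of all targets. Map2k4, for MKK4, had a log2 fold change of −0.16, and Tab1, for a TAK1 partner that also binds p38 alpha, 0.12. Map3k4, for the kinase that GADD45 proteins switch on, had −0.007 and Gadd45b −0.05. Txnip, for the protein that binds thioredoxin, the inhibitor of ASK1, had 0.12.

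Of 5 tested downstream kinases 0 passed and 4 had positive values. Rps6ka5 and Rps6ka4, which encode the chromatin kinases MSK1 and MSK2, had log2 fold changes of 0.03 and −0.13, and Mknk2 had 0.02. Mapkapk5 was not analysed here. Of 9 tested phosphatases 0 passed, with 3 positive and 6 negative values. Dusp1, for the stress-induced phosphatase that switches p38 off, had a mean of 574.4 ± 144.5 CPM in aged LSECs, against 856.8 ± 434.7 CPM in young LSECs (SD, n = 7 each). That was a log2 difference of −0.58 (SE 0.313, adjusted p = 0.852 by edgeR). Dusp10, a phosphatase for p38 and JNK, had 0.06, and Ppm1d, which removes phosphate from p38 and p53, −0.002.

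Of 14 tested transcription factor substrates 0 passed, with 4 positive and 10 negative values. Atf2 and Mef2c, for factors that p38 phosphorylates, had log2 fold changes of 0.009 and −0.01, and Ets1 had −0.31 (SE 0.16). Of 10 tested MK2 substrates and mRNA decay genes 0 passed. Zfp36, for tristetraprolin, had a mean of 1076 ± 323.0 CPM in aged LSECs, against 2152 ± 1133 CPM in young LSECs (SD, n = 7 each). The fitted log2 difference was −0.99 (SE 0.372, adjusted p = 0.643 by edgeR). For Zfp36 7 of 7 aged libraries lay below the young mean of their experiment, as for 3.05% of all targets. Lsp1, a leukocyte actin-binding protein, is named after its values were seen. Its mean was 30.1 ± 31.7 CPM in aged LSECs, against 7.88 ± 9.25 CPM in young LSECs (adjusted p = 0.708 by edgeR). Hspb1 was not analysed here.

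**Figure D4:**
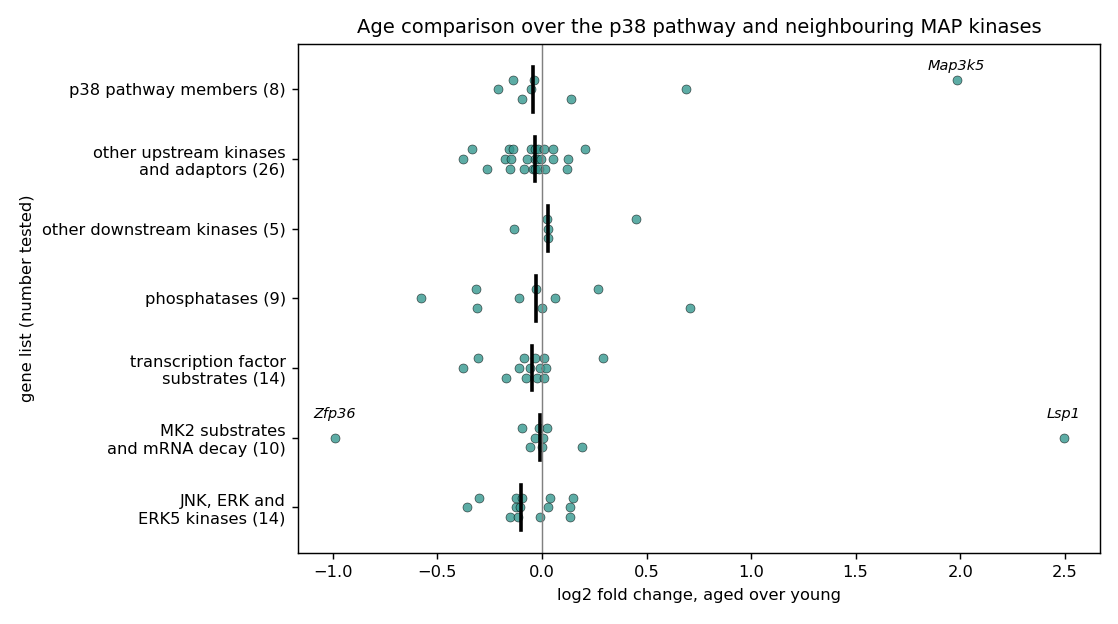
Log2 fold change, aged over young (x axis), of each tested gene of the 9 members and of 6 further lists (y axis, number tested in brackets). Each point is 1 gene and the black bar is the median of the list. Medians lie between −0.10 and 0.03, and the named points are Map3k5 at 1.98, Lsp1 at 2.50 and Zfp36 at −0.99.

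Of 14 tested JNK, ERK and ERK5 kinases 0 passed, with 5 positive and 9 negative values. Mapk8, for JNK1, which ASK1 also drives through MKK4 and MKK7, had a mean of 37.1 ± 4.94 CPM in aged LSECs, against 45.9 ± 9.82 CPM in young LSECs (SD, n = 7 each). The log2 fold change of Mapk8 was −0.30 (SE 0.125, adjusted p = 0.686 by edgeR). Here too 7 of 7 aged libraries lay below the young mean of their experiment, as for 3.05% of all targets. Mapk9, for JNK2, had 0.04 and Mapk3, for ERK1, 0.03. Bmp6, the endpoint named by the series title, had a mean of 573.8 ± 101.3 CPM in aged LSECs, against 359.1 ± 120.7 CPM in young LSECs. The fitted log2 difference was 0.67 (SE 0.186), with an adjusted p of 0.408 by edgeR. For Bmp6 7 of 7 aged libraries lay above the young mean of their experiment, as for 2.36% of all targets. Over all libraries the groups overlapped.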

How the data were processed

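Per the labels' protocols, TRIzol LS served to extract RNA from the sorted cells, and an Ion AmpliSeq mouse kit, which amplifies a short target per gene, to make libraries. The authors deposited raw read counts per RefSeq target, 1 file per library. The submitters' processing notes name HTSeq 0.6.0 and DESeq2 1.18.1, and the sources used here name no aligner, genome build or strand setting. The 5 bookkeeping entries per file (1.24 to 3.04% of reads) were left out. Targets were named from RefSeq (GRCm38.p6) and GENCODE tables, and 22562 of 23930 matched.

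In R 4.3.3, edgeR 4.0.16 kept 14168 targets by filterByExpr, scaled libraries by TMM and fitted age with experiment as a term, using the quasi-likelihood F test with Benjamini-Hochberg adjustment over all targets. A model of 4 means gave the values within experiments and their difference. Fold changes are aged over young, and standard errors follow from each fold change divided by the root of its F. Permutations enumerated 1400 label orders within experiments on log2 CPM (prior count 2). DESeq2 1.42.0, limma-voom (limma 3.58.1), other scalings and left-out libraries were alternatives. The steps were run on simulated counts with set fold changes between the ages. The simulated counts held no difference between experiments, so that part was not checked. Members, lists and the genes named from them, by name and not by value, were chosen with earlier results of these data known. Aged 1.1 and 1.2 were the most alike pair, at a chi-square of 6.35 per degree of freedom, above sampling noise, and were kept apart.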

Additional observations from a re-analysis of the deposited data

Results flagged for a closer look

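For Mapk14 in aged libraries, aged 2.4 at 74.9 CPM lay far from the other 6, which ranged upward from 138.4 CPM. For Map2k6 in aged libraries, aged 1.3 at 21.8 CPM lay apart in the same way. The gap of each to its nearest neighbour was 0.603 and 0.58 of the range of its group on the log2 scale, above Dixon's critical value for 7 samples. In all 18 groups (9 genes, 2 ages) were examined, and chance flags about 1 in 20. Aged 2.4 also had 2.85% receptor reads, and aged 1.3 had a leukocyte marker sum of 2041 CPM, and their part in these values was not tested.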

How the results depend on the processing

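In the age comparison the number of members called stayed at 0 under every alternative run but DESeq2, which called 1. The number of targets called, 23, was 46 with no scaling beyond total reads, 146 by DESeq2, 12 with no experiment term, 60 with the receptor term, 6 with the leukocyte term, 36 without young 2.2 and aged 2.4, 4 with aged 1.1 and 1.2 summed, and 4 to 29 when 1 library was left out (4 to 11 without any of aged 1.1, 1.2, 2.1, 2.2 and 2.3 and young 1.1, 1.3, 2.3 and 2.4). Mapk14 changed sign to 0.0067 with no scaling, 0.066 without young 2.2 and aged 2.4, and −0.10 to 0.092 when 1 library was left out. Mapkapk2 changed sign to 0.0075 with no scaling and ranged from −0.18 to 0.0032 when 1 library was left out, and Map2k3 was at −0.042 with the leukocyte term. The sign of the other tested members held. The log2 ratio of Mapk14 to the other p38 kinases ranged from −0.066 to 0.18 over left-out libraries. In experiment 1 the count of targets, 0, was 1 with no scaling, 87 by DESeq2 and 1 by limma-voom. In experiment 2 the count, 1, was 5 with no scaling, 0 when fitted alone, 53 by DESeq2, 3 by limma-voom and 1 to 3 over left-out libraries. Between the experiments, with alternatives chosen after seeing the data, 0 members passed with the receptor term, 1 with no scaling, 6 without young 2.2 and aged 2.4, and 0 to 6 over left-out libraries. The receptor term turned Mapk14 to −0.25, Map2k3 to −0.10 and Mapkapk3 to −0.15. The cause of these changes was not tested.

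The replicate number as a replicate block gave 5 calls, 0 of them members, and a log2 fold change of 2.02 for Map3k5 (adjusted p = 0.357 by edgeR). The labels do not say what the replicate number marks. The correlation of the deviations of libraries with the same number ran from −0.43 to 0.83, positive in 4 of 7 pairs, and 6 of 14 libraries matched their own number best, so the libraries were not treated as paired. Few reads limit the values of Map3k5 and Mapk13.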
